A study of Homo sapiens with 9 samples.

Results

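The 6 genes of the short arm of chromosome 3 (3p) best known as tumor suppressors of the kidney were followed through RNA-seq counts of 3 human cell lines. The genes are *VHL*, *PBRM1*, *SETD2*, *BAP1*, *RASSF1* and *FHIT*. They were chosen by symbol for their known role, with earlier results of these data known, and each matched 1 row by its NCBI gene identifier, so that they are 6 of the 28395 genes in the table. The study asked how metabolism is reprogrammed as clear cell renal cell carcinoma (ccRCC) progresses to metastasis. It compared HK2, a parental line from proximal tubule of normal kidney, 786-O, a parental line from a primary ccRCC, and 786-M1A, the metastatic derivative of 786-O that was recovered from lung metastases after injection into animals. There were 3 libraries per line, named here replicates 1 to 3, with no treatment. All the cells were grown stably in Plasmax, a medium modeled on the nutrients of human serum. The replicates of a line were dishes plated alongside each other, so that p-values measure the spread between dishes of 1 line and not between patients or clones. Normal kidney is represented by 1 line, which was immortalized with papillomavirus genes, and metastasis by 1 derivative.

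The short arm of chromosome 3 is lost from one of the homologs in most ccRCC, and the remaining copy of one or several of its suppressor genes is then often mutated or silenced. The VHL protein is the substrate receptor of a ubiquitin ligase that marks the hypoxia-inducible factors (HIF) for destruction when oxygen is present, and 786-O is widely used as a line without functional VHL protein. PBRM1, SETD2 and BAP1 act on chromatin: PBRM1 is the bromodomain subunit of the PBAF remodeling complex, SETD2 places the third methyl group on lysine 36 of histone H3 in transcribed genes, and BAP1 removes ubiquitin from histone H2A. RASSF1 binds the kinases of the Hippo pathway, and FHIT is a hydrolase of dinucleoside polyphosphates whose gene spans a fragile site. RNA counts report neither the copy number of a gene nor its mutations or its protein.

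Library totals ran from 30212291 to 45362428 counts. Levels are given in CPM, counts scaled to a common library total after correction by the trimmed mean of M-values (TMM), and 3 counts, the floor used here, corresponded to 0.0647 to 0.0964 CPM. The quasi-likelihood model of edgeR was run on the 12695 genes whose counts averaged 50 or more per library, and a gene is said to be called where its Benjamini-Hochberg adjusted p over those genes was under 0.05. Epithelial markers of the kidney were present, with *PAX8* at 165 to 182 CPM on average per line, but *LRP2*, *SLC22A6* and *SLC22A8*, the endocytic receptor and the organic anion transporters that define a mature proximal tubule, had no count in any library. The summed level of the 17 markers of proximal tubule was 3772 to 3816 CPM in HK2 but 6197 to 6331 in 786-O and 7689 to 7914 in 786-M1A, and this rise was that of *VIM*, which is also a mesenchymal gene. *VIM* was then left out, a choice made after the data were seen. The other 16 summed to 2379 to 2426 CPM in HK2 but 1407 to 1443 in 786-O and 1232 to 1310 in 786-M1A. This fall was that of abundant genes, with *CDH6*, *KRT8* and *KRT18* lower in both tumor lines. *ANPEP* (log2 fold changes 6.01 and 3.52 against HK2) and *PAX2* (2.83 and 1.60) were instead higher in both. Of the 10 markers tested, *VIM* included, 4 were called higher and 5 lower in each tumor line. Of the 13 markers of other cell types, 5 were at 0 in every library, among them *PTPRC* of leukocytes, and 2 were high enough to be tested, *CD68* and *COL1A1*. The 13 summed to 97.9 to 111 CPM in HK2 but 288 to 355 in 786-O and 50.1 to 55.0 in 786-M1A, and the part of these differences in the results that follow was not tested.

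Of the 6 genes, 5 were expressed far above the floor in every line, and of these *RASSF1* differed most between the lines. *RASSF1* rose from HK2 to 786-O and again to 786-M1A, 2.42-fold in all. *BAP1* was also highest in 786-M1A, by 1.31-fold over HK2, while the means of *VHL*, *PBRM1* and *SETD2* each stayed within 1.17-fold across the lines. *FHIT* had 11 to 26 counts per library and was not tested. In 786-O against HK2, 5 of the 5 genes tested were called, beside 84.2% of all genes tested, with 4 higher (41.6% of all genes) and 1 lower (42.6%). In 786-M1A against HK2, 3 of 5 were called, beside 84.9% of all genes, with 3 higher (41.6%) and 0 lower (43.3%). In 786-M1A against 786-O, 2 of 5 were called, beside 56.0% of all genes, with 2 higher (27.9%) and 0 lower (28.0%). With so many genes called at this spread between dishes, a count of calls is near what any gene gives, and the sizes of the differences carry the description. The first 2 comparisons share the HK2 libraries, and each tumor line also enters the third. Bulk counts of a line cannot tell fewer cells with a transcript from less RNA per cell.

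**Figure D1:**
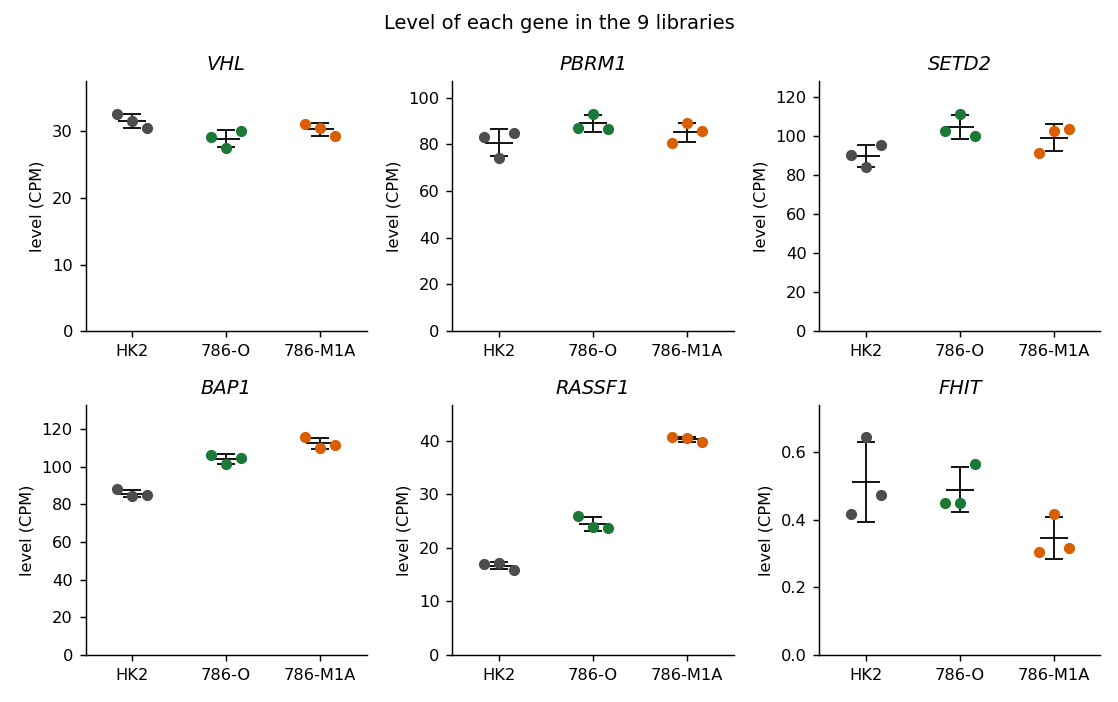
Level of each of the 6 genes in CPM (vertical axes, from 0) in the 3 libraries of HK2, 786-O and 786-M1A (points), with the mean and SD of the line (bars). *RASSF1* goes from 16.7 CPM in HK2 to 24.5 and 40.3 CPM, whereas *FHIT* stays below 0.7 CPM in every library.

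*VHL* lies at chr3:10141778-10153667 of GRCh38 on the forward strand, with 3 exons in its canonical transcript. Its level was 32.6, 31.5 and 30.4 CPM in the HK2 libraries, 29.1, 27.5 and 30.0 CPM in 786-O, and 31.1, 30.4 and 29.3 CPM in 786-M1A. The 786-O libraries lay below those of HK2, by 0.43 CPM at the closest, and those of 786-M1A overlapped with both. The means were 31.5 ± 1.11, 28.9 ± 1.25 and 30.3 ± 0.935 CPM (SD, n = 3). In 786-O against HK2 the edgeR log2 fold change was -0.12 ± 0.05 (SE, adjusted p = 0.0261), a call that was lost without HK2 replicate 1 (adjusted p = 0.0968), without 786-O replicate 2 (adjusted p = 0.132) and with no filter on low counts (adjusted p = 0.0864). The log2 fold change was -0.06 in 786-M1A against HK2 (95% interval -0.16 to 0.05) and 0.07 in 786-M1A against 786-O (95% interval -0.04 to 0.17), neither of them called.

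The core subunits of the VHL ligase were higher in both tumor lines, whereas *NEDD8*, the modifier that activates the cullin, was lower (log2 fold changes -0.68 and -0.57, both called). *NEDD8* lies on chromosome 14, whose tested genes had median log2 fold changes of -0.74 and -0.69 against HK2. VHL binds elongin B and elongin C (*ELOB*, *ELOC*) and through them the cullin *CUL2* and the ring finger protein *RBX1*. *ELOC* went from 70.1 CPM in HK2 to 96.2 in 786-O and 107 in 786-M1A, with edgeR log2 fold changes against HK2 of 0.46 and 0.61. *CUL2* gave 0.42 and 0.52, *ELOB* 0.24 and 0.34, and *RBX1* 0.17 and 0.47, all of them called. The substrates went the other way: *HIF1A* was 678 to 718 CPM in HK2 but 9.69 to 10.4 in 786-O and 6.58 to 7.01 in 786-M1A, and *EPAS1*, which encodes HIF2α, averaged 303, 78.9 and 123 CPM. In the list of 12 genes of the ligase, its substrates and the HIF hydroxylases, 11 were tested, and 6 were higher and 4 lower in 786-O against HK2 (median log2 fold change 0.17, against -0.01 over all genes tested). Against HK2, 786-M1A had 6 higher and 5 lower (median 0.30, against -0.02 over all genes), and against 786-O it had 6 higher and 3 lower (median 0.10, against 0.00). These medians over all genes, -0.01, -0.02 and 0.00, hold for the other lists too. The extremes were the same in all 3 comparisons: *EGLN3*, a prolyl hydroxylase and itself a HIF target, rose by 4.87, 6.22 and 1.35 on the log2 scale, and *HIF1A* gave -6.13, -6.69 and -0.56.

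Genes known as HIF targets were split. Of the 15 listed targets with a row, 13 were tested, and 7 were higher and 5 lower in 786-O against HK2, with *TGFA* (log2 fold change 3.92) and *LOX* (-4.07) at the ends. The comparison of 786-M1A with HK2 gave 7 higher and 4 lower, with *ADM* (4.68) and *LOX* (-1.68) at the ends, and in 786-M1A against 786-O 9 were higher and 2 lower, from *LOX* (2.39) to *PFKFB4* (-0.61). The medians were 0.30, 0.56 and 0.33.

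*PBRM1* and *SETD2*, the first pair of chromatin regulators, followed each other more closely than any other pair among the 5 genes tested. The root mean square difference between their log2 levels, each centered on its mean over the 9 libraries, was 0.04, against 0.14 to 0.54 for the other 9 pairs. This closeness was not particular to the pair, since 760 genes tested lay within 0.1 of *PBRM1* and 554 within 0.1 of *SETD2*. Each had a closer gene elsewhere, *MTF1* for *PBRM1* and *PSME4* for *SETD2*. Both were lowest in HK2 replicate 2 and highest in 786-O replicate 2, so part of the match lies between dishes. *PBRM1* lies at chr3:52545367-52685913 and *SETD2* at chr3:47016436-47164840, both on the reverse strand of GRCh38. The sequences around the start of their canonical transcripts are shown as description, and a link to their levels was not tested. Each runs 5′ to 3′ on the reverse strand, from 250 bases before to 50 bases after the start, as RefSeq gives it for GRCh38.p14, with CG dinucleotides in capitals. The window of *PBRM1* is chr3:52685864-52686163 and that of *SETD2* is chr3:47164064-47164363.
PBRM1: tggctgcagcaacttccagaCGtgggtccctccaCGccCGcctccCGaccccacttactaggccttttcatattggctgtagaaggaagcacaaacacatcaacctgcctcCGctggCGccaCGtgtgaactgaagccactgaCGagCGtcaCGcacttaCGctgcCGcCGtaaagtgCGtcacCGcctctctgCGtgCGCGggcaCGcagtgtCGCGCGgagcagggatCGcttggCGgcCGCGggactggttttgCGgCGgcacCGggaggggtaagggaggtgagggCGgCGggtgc
SETD2: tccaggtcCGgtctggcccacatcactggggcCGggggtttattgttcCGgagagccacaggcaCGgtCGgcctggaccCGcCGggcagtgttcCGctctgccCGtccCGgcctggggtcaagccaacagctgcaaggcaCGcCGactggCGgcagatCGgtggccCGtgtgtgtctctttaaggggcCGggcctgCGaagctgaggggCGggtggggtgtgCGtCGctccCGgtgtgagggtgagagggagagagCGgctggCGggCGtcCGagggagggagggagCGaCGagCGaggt
The *PBRM1* window holds 31 CG dinucleotides and the *SETD2* window 28, against a median of 14 in the 35116 promoter windows of the RefSeq table. *GNL3*, a nucleolar GTPase gene on the forward strand, starts 7 bases from the start of *PBRM1*, so that the *PBRM1* window is also the beginning of *GNL3*. On both strands together, the core of the hypoxia response element (ACGTG or GCGTG) occurs 7 times in the *PBRM1* window and 1 time in that of *SETD2*, and 48.4% of all windows hold at least one. The E box CACGTG, whose letters include ACGTG on both strands and so overlap with that core, occurs 1 time in the *PBRM1* window and not in that of *SETD2*, beside 7.26% of all windows. The CCAAT box occurs 1 time in the *PBRM1* window only of these 2, beside 34.6% of all windows, and the ETS core CCGGAA 1 time in the *SETD2* window only, beside 17.2%. RefSeq gives a second window of *PBRM1*, not printed here, at chr3:52685550-52685849, around a start 314 bases from the canonical one. That second window holds 46 CG dinucleotides but no hypoxia response core, E box, CCAAT box or ETS core.

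*PBRM1* was at 83.0, 74.3 and 84.9 CPM in HK2, 87.2, 93.1 and 86.6 CPM in 786-O, and 80.7, 88.9 and 85.8 CPM in 786-M1A. HK2 replicate 2 was the lowest of the 9 libraries and 786-O replicate 2 the highest, and 786-M1A overlapped with both other lines. The edgeR log2 fold change was 0.14 ± 0.05 in 786-O against HK2 (adjusted p = 0.0160). That call was lost without HK2 replicate 2 (adjusted p = 0.127), without 786-O replicate 2 (adjusted p = 0.0940) and with upper-quartile scaling (adjusted p = 0.0671). The difference was 0.08 in 786-M1A against HK2 (95% interval -0.03 to 0.18, adjusted p = 0.171), which was called without 786-M1A replicate 1 (adjusted p = 0.0448) and with no filter on low counts (adjusted p = 0.0314). Between 786-M1A and 786-O it was -0.06 (95% interval -0.17 to 0.04) and was not called. Reads could not be split with certainty between *PBRM1* and *UQCC5* on the opposite strand, which share 146 exonic bases, if strand was not used in counting, but *UQCC5* had at most 389 counts in a library against 2583 to 3935 for *PBRM1*.

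*SETD2* was at 90.3, 84.1 and 95.4 CPM in HK2, 102, 111 and 100 CPM in 786-O, and 91.4, 103 and 104 CPM in 786-M1A. The 786-O libraries were above the HK2 libraries without overlap, and 786-M1A replicate 1 fell within HK2. The edgeR log2 fold change was 0.22 ± 0.06 in 786-O against HK2 (adjusted p = 0.00166), called under every alternative tried. In 786-M1A against HK2 it was 0.14 ± 0.06 (adjusted p = 0.0287). This second call was lost without HK2 replicate 1 (adjusted p = 0.0622) or 2 (adjusted p = 0.145), without 786-M1A replicate 2 (adjusted p = 0.0996) or 3 (adjusted p = 0.121), with upper-quartile scaling (adjusted p = 0.115) and with at least 10 counts required in every library (adjusted p = 0.0510). Between 786-M1A and 786-O the difference was -0.08 (95% interval -0.19 to 0.04), not called.

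The differences of *PBRM1* and *SETD2* were small, since 82.8% and 73.5% of all genes tested changed by more in 786-O against HK2, and several partners of both proteins changed by more. PBAF, the assembly that PBRM1 defines, also holds *ARID2* and *BRD7*. *ARID2* went from 59.5 ± 4.31 CPM in HK2 to 42.8 ± 1.17 in 786-O and 34.0 ± 3.00 in 786-M1A (SD, n = 3), a fall in every comparison (log2 fold changes -0.47, -0.81 and -0.33). *BRD7* gave -0.06, -0.09 and -0.03 and was not called, while the ATPase *SMARCA4* rose against HK2 by 0.71 and 0.72, with 0.01 between the tumor lines. *SMARCC1*, a core subunit encoded on 3p, was lower in 786-O against HK2 (-0.12) and higher in 786-M1A against 786-O (0.10). All 16 listed PBAF subunits were tested. Of these, 8 were higher and 7 lower in 786-O against HK2 (median 0.06), from *SMARCA2* (1.09) to *ARID2*. For 786-M1A against HK2 7 were higher and 5 lower (median 0.04), from *BCL7C* (1.38) to *BCL7A* (-1.34), and in 786-M1A against 786-O 6 were higher and 3 lower (median 0.01), from *BCL7B* (0.53) to *BCL7A* (-1.53). Among 7 subunits of the other SWI/SNF assemblies, which lack PBRM1, *SS18* averaged 8.97, 120 and 136 CPM in the order HK2, 786-O, 786-M1A, with log2 fold changes of 3.74, 3.92 and 0.18. In that group 4 were higher and 1 lower in 786-O against HK2 (median 0.21), 3 higher and 2 lower in 786-M1A against HK2 (median 0.08), and 1 higher in 786-M1A against 786-O (median -0.08). *ARID1B*, a subunit of the BAF assembly, was the lowest of them against HK2 (-0.37 and -0.48).

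For SETD2, the list held 20 writers, erasers, readers and elongation factors around methylated lysine 36 of histone H3, and all 20 were tested. Against HK2, 10 were higher and 6 lower in 786-O (median 0.13), and 9 were higher and 7 lower in 786-M1A (median -0.05). *NSD1*, which places the first methyl groups on the same lysine, rose from 25.5 ± 3.45 CPM in HK2 to 177 ± 7.88 in 786-O and 145 ± 14.7 in 786-M1A (log2 fold changes 2.79 and 2.51 against HK2). *DNMT3A*, a DNA methyltransferase that reads this mark, fell from 41.2 to 43.2 CPM across the HK2 libraries to 3.90 to 4.39 and 3.17 to 3.41 CPM (-3.33 and -3.68). Between the tumor lines 2 were higher and 7 lower in 786-M1A (median -0.06), with *NSD2* (0.25) and the elongation factor *SUPT6H* (-0.59) at the ends.

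*BAP1* lies at chr3:52401008-52410008 on the reverse strand. It was at 88.0, 84.3 and 84.9 CPM in HK2, 106, 101 and 105 CPM in 786-O, and 116, 110 and 112 CPM in 786-M1A. The 3 lines did not overlap, with HK2 lowest and 786-M1A highest. Of the 5 genes tested, 5 did not overlap between the lines in 786-O against HK2 (85.4% of all genes tested), 2 in 786-M1A against HK2 (85.0%) and 2 in 786-M1A against 786-O (61.6%). The edgeR log2 fold changes of *BAP1* were 0.28 ± 0.04 in 786-O against HK2 (adjusted p = 9.35e-07) and 0.39 ± 0.04 in 786-M1A against HK2 (adjusted p = 5.59e-09), both called under every alternative tried. The step from 786-O to 786-M1A was 0.11 ± 0.04 (adjusted p = 0.0203) and was no longer called without 786-O replicate 2 (adjusted p = 0.105) or 786-M1A replicate 1 (adjusted p = 0.0668). In size the change from HK2 to 786-M1A was moderate, since 59.4% of all genes tested changed by more.

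BAP1 works in complexes with the ASXL proteins, which activate it, and with the cofactor HCFC1. *ASXL1* went down as *BAP1* went up, from 206 ± 6.22 CPM in HK2 to 156 ± 0.471 in 786-O and 147 ± 4.11 in 786-M1A (log2 fold changes -0.40, -0.49 and -0.09, all called). *ASXL2* gave 0.03, -0.14 and -0.17 and was not called. *HCFC1* was higher against HK2 (0.34 and 0.29) and gave -0.06 between the tumor lines. Among 13 listed partners and regulators, 12 were tested. Of these, 5 were higher and 3 lower in 786-O against HK2 (median 0.03), from *UBE2O* (0.62), a ubiquitin-conjugating enzyme that acts on BAP1, to the transcription factor *YY1* (-0.65). For 786-M1A against HK2 5 were higher and 5 lower (median -0.12), from the histone demethylase *KDM1B* (0.73) to *YY1* (-0.77), and in 786-M1A against 786-O *KDM1B* was higher (0.43) and 4 were lower (median -0.03), with *MBD5* (-0.30) at the end.

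*RASSF1* lies at chr3:50329788-50340836 on the reverse strand. The HK2 libraries held 527 to 738 of its counts, those of 786-O 900 to 1149 and those of 786-M1A 1470 to 1553. The level was 16.9, 17.2 and 15.9 CPM in HK2, 25.9, 23.9 and 23.6 CPM in 786-O, and 40.6, 40.4 and 39.7 CPM in 786-M1A. The lines were fully separated, and the lowest 786-M1A library was 13.8 CPM above the highest of 786-O. The edgeR log2 fold changes were 0.55 ± 0.05 in 786-O against HK2 (1.47-fold, adjusted p = 4.36e-09), 1.27 ± 0.05 in 786-M1A against HK2 (2.42-fold, adjusted p = 1.09e-15) and 0.72 ± 0.05 in 786-M1A against 786-O (1.64-fold, adjusted p = 7.83e-11). Under the alternatives they ranged from 0.51 to 0.58, from 1.22 to 1.30 and from 0.69 to 0.77, and were called under each. In the step from 786-O to 786-M1A, 10.9% of all genes tested changed by more in either direction. Exact two-sided permutation tests of 3 libraries against 3 gave p = 0.1 for *RASSF1* in each comparison, the smallest such a design can give.

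**Figure D2:**
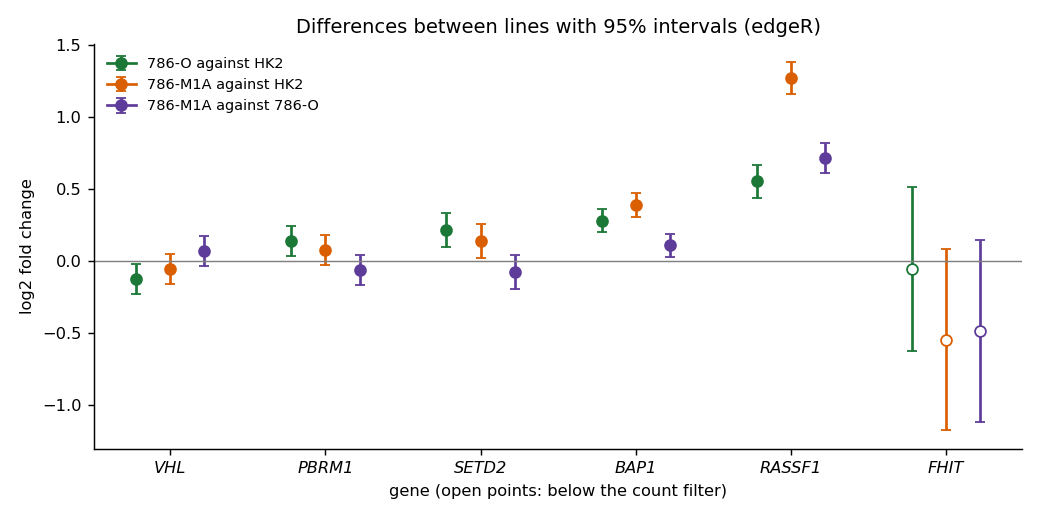
Log2 fold change of each gene (vertical axis) with its 95% interval from edgeR in the 3 comparisons (colors), with open points for *FHIT*, which was fitted with no filter on low counts. The intervals of *RASSF1* lie furthest above 0, at 0.55, 1.27 and 0.72.

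The profile of *RASSF1* had fewer close matches than those of the other genes. Its root mean square difference was under 0.1 with 22 genes of those tested, against 554 to 1071 genes for the other 4. A fixed limit leaves fewer matches for a gene with larger differences, so this count restates the size of those of *RASSF1*. The closest were *PRXL2B* on chromosome 1, at 26.0, 38.7 and 63.2 CPM in HK2, 786-O and 786-M1A (root mean square difference 0.05), and *TPBG* on chromosome 6, at 37.0, 51.3 and 83.6 CPM (0.05). For the others the closest were *LZTFL1* and *SNAPIN* (*VHL*), *MTF1* and *EEF2K* (*PBRM1*), *PSME4* and *TRIP12* (*SETD2*), and *HDLBP* and *ABHD15* (*BAP1*), at 0.03 to 0.04 over the 9 libraries.

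The counts are per gene and do not separate the transcripts of *RASSF1*, which is known to start at more than one promoter, the upstream one of which is silenced by methylation in many tumors. GENCODE lists 10 transcripts, and the canonical one starts at position 50340836. The window that RefSeq gives for GRCh38.p14 surrounds an internal start, 3386 bases further along the gene, at chr3:50337401-50337700 on the reverse strand, and 1 of the 10 transcripts starts within 500 bases of it. It is shown, with CG dinucleotides in capitals, because *RASSF1* differed most between the lines.
RASSF1: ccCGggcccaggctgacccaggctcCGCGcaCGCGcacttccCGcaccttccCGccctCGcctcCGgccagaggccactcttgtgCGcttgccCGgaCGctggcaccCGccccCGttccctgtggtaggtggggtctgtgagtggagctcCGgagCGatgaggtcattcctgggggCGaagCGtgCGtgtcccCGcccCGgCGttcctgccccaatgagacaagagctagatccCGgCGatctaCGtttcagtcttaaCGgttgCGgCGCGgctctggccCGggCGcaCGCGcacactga
The window holds 33 CG dinucleotides, more than 82.8% of all windows. It has 3 GC boxes (GGGCGG on either strand, in 45.0% of all windows), 4 cores of the hypoxia response element and 1 CCAAT box. An antisense gene, *RASSF1-AS1*, shares 659 exonic bases with *RASSF1* but had at most 4 counts in a library.

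The nearest tested gene on either side of *RASSF1* changed by less than *RASSF1* in each comparison. *TUSC2*, the nearest tested neighbor, 1.57 kb away, averaged 19.5 ± 1.31, 19.5 ± 0.780 and 20.7 ± 0.514 CPM (SD, n = 3) in the order HK2, 786-O, 786-M1A, and was not called (log2 fold changes -0.01, 0.07 and 0.08). *NPRL2*, a regulator of the mTOR kinase 6.49 kb away on the other side, gave 0.06, 0.25 and 0.20 and was called in the last 2. A little further out *CYB561D2*, next to *NPRL2*, gave log2 fold changes of 0.48, 0.71 and 0.23. On the side of *TUSC2*, beyond it and *HYAL2*, which was not called either, *NAA80* gave 0.25, 1.12 and 0.87. *CYB561D2* and *NAA80* were picked with their values in view, and rises of this kind were not particular to *RASSF1* in this stretch. The neighbors of *BAP1*, *DNAH1* and *PHF7*, were low, at most 4.17 CPM on average, and rose against HK2 by 1.21 to 1.54 on the log2 scale. *VHL* lay between *BRK1* (0.23, 0.61 and 0.37) and *IRAK2* (-1.32, -0.81 and 0.51), which moved in opposite directions against HK2 and were both higher in 786-M1A against 786-O. *PBRM1* lay between *UQCC5* (0.16, 0.26 and 0.10) and *GNL3* (0.14, 0.18 and 0.04), and *SETD2* between *NBEAL2* (1.36, 1.45 and 0.09) and *KIF9* (0.52, 0.64 and 0.12).

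**Figure D3:**
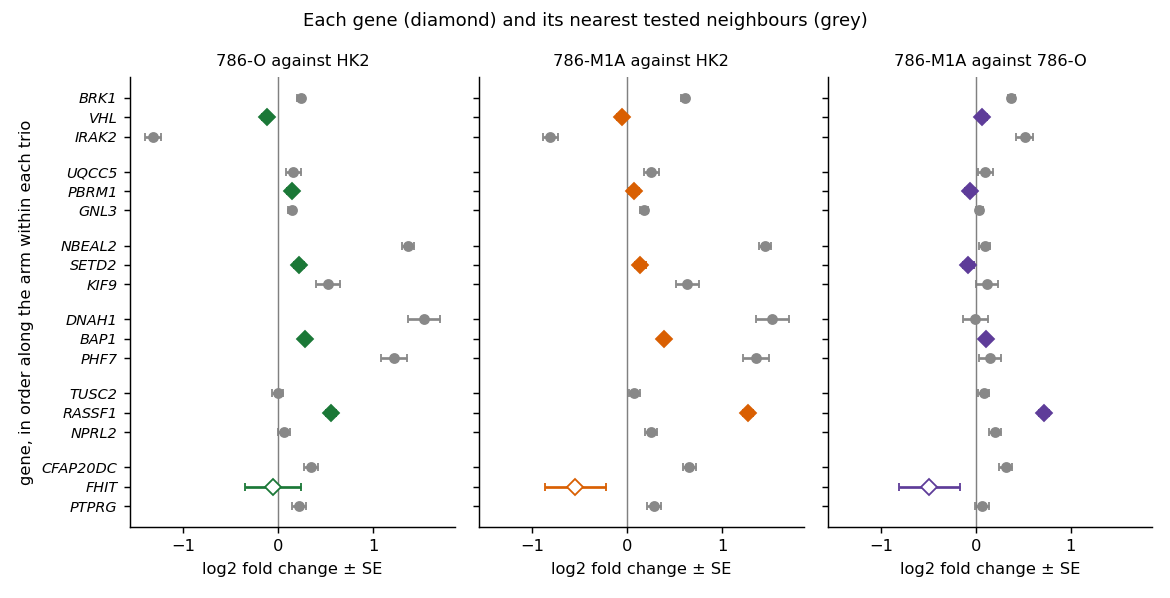
Log2 fold change with its SE (horizontal axes) of each gene (diamonds, open for *FHIT*, which was fitted with no filter on low counts) and of the nearest tested gene on each side (gray points), in the order along 3p within each trio, for the 3 comparisons. *RASSF1* stands to the right of *TUSC2* and *NPRL2* in each panel, at 1.27 against 0.07 and 0.25 in 786-M1A against HK2.

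RASSF1 and some, but not all, of its relatives bind the Hippo kinases MST1 and MST2 (*STK4*, *STK3*). These kinases act through the scaffold *SAV1* and the LATS kinases to restrain the coactivators YAP and TAZ. *STK3* was higher against HK2 (log2 fold changes 0.24 and 0.22) and *STK4* lower (-0.23 and -0.18), and *SAV1* fell from 30.5 ± 1.73 CPM in HK2 to 5.57 ± 0.212 in 786-O and 4.62 ± 0.443 in 786-M1A (-2.45 and -2.73). Of the 24 genes listed for the pathway and the RASSF family, 23 were tested. Against HK2, 786-O had 8 higher and 12 lower (median -0.11) and 786-M1A 7 higher and 14 lower (median -0.21), with *RASSF5* at the upper end (2.17 and 2.13). The lower end was *TEAD2*, a DNA-binding partner of YAP, which was 37.3 to 37.9 CPM in HK2 and 0.584 to 0.732 CPM in 786-O, with at most 1 count per library in 786-M1A. Between the tumor lines 4 were higher and 7 lower in 786-M1A (median -0.01), led by *RASSF4* (0.78). Other members of the family moved in either direction against HK2: *RASSF4* (1.20 and 1.98), *RASSF7* (0.69 and 1.11) and *RASSF8* (0.43 and 0.49) rose in both tumor lines and *RASSF6* (-2.69 and -2.58) and *RASSF9* (-1.09 and -2.46) fell, these being named after their values were seen.

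Genes known as targets of YAP were mostly lower in the tumor lines. All 10 were tested. Against HK2, 8 were lower and 2 higher in 786-O (median log2 fold change -1.09) and 8 lower and 1 higher in 786-M1A (median -1.29). *ANKRD1* went from 222 CPM in HK2 to 5.35 in 786-O and 7.32 in 786-M1A (-5.38 and -4.93). At the other end were *AMOTL1* (0.23) in 786-O and *F3*, tissue factor, in 786-M1A (0.36). Between the tumor lines 5 were higher and 4 lower (median 0.13), from *F3* (1.53) to *AMOTL1* (-1.93).

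*FHIT* lies at chr3:59747277-61251452 on the reverse strand, a span of 1504 kb, and was close to the floor in all 3 lines. HK2 had 13, 26 and 22 counts (0.418, 0.645 and 0.475 CPM), 786-O had 20, 17 and 24 counts (0.451, 0.451 and 0.566 CPM), and 786-M1A had 11, 16 and 12 counts (0.304, 0.417 and 0.317 CPM). The 786-M1A libraries were below those of HK2 and 786-O, though the highest of them differed from the lowest of HK2 by 0.001 CPM. Exact Poisson intervals, which cover counting error only, overlapped even between the lowest library (0.152 to 0.544 CPM) and the highest (0.421 to 0.944 CPM). Fitted by edgeR with no filter on low counts, the log2 fold changes were -0.06 ± 0.29 (adjusted p = 0.889), -0.55 ± 0.32 (adjusted p = 0.130) and -0.49 ± 0.32 (adjusted p = 0.253) in the order of comparisons above, beside 63.8%, 64.7% and 38.0% of the 21241 genes called in that fit. A difference was therefore not detectable at this depth. No promoter window was available for *VHL* and *BAP1*. The window around the canonical start of *FHIT* is chr3:61251403-61251702, where 6 of the 7 transcripts start within 500 bases. It is shown with CG dinucleotides in capitals, for comparison with the windows of *PBRM1*, *SETD2* and *RASSF1*.
FHIT: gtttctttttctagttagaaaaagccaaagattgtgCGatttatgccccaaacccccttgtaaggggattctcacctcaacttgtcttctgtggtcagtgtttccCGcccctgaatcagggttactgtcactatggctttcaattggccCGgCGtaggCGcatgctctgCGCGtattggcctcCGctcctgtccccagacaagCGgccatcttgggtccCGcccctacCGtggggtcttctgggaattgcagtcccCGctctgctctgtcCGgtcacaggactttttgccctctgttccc
It holds 13 CG dinucleotides against a median of 14 in all windows, 2 GC boxes and 2 CCAAT boxes, and no core of the hypoxia response element. Both nearest tested neighbors were far away, *CFAP20DC* at 697 kb and *PTPRG* at 310.1 kb, and were higher in 786-M1A against HK2 (0.66 and 0.29).

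FHIT belongs to the histidine triad proteins, and the 6 other genes listed for that superfamily were all tested. Against HK2, 4 were higher and 1 lower in 786-O (median 0.28) and 4 higher and 2 lower in 786-M1A (median 0.20). *HINT1*, a phosphoramidase, rose from 148 CPM to 307 and 324 CPM (log2 fold changes 1.06 and 1.13), and *GALT*, an enzyme of galactose metabolism, fell (-0.81 and -0.68). Between the tumor lines 2 were lower in 786-M1A, by 0.18 for *HINT3* and 0.21 for *HINT2* on the log2 scale, named after their values were seen (median 0.00).

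Levels of different genes were compared per kb of merged exons in GENCODE. In HK2 the order was *BAP1* (18.2 ± 0.417 CPM per kb), *PBRM1* (8.36 ± 0.587), *VHL* (6.30 ± 0.222), *SETD2* (6.28 ± 0.396), *RASSF1* (4.53 ± 0.181) and *FHIT* (0.0686 ± 0.0158), with *VHL* and *SETD2* within their spread. In 786-M1A *RASSF1*, at 10.9 ± 0.130 CPM per kb, was second to *BAP1* at 23.8 ± 0.611 and above *PBRM1* at 8.82 ± 0.429. This order depends on the length used. On the length of the canonical transcript, a choice made after the data were seen, *BAP1* was still first and *FHIT* last in each line, and *RASSF1* was second in 786-M1A (21.8), but *SETD2* came to 10.5 CPM per kb in HK2, next to *PBRM1* at 10.1, and *VHL* lay below *RASSF1* (7.14 against 9.03). *BAP1* was more abundant by counts than 80.9% of the genes tested and *RASSF1* than 45.5%.

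Chromosome 3p as a whole was not lower in the tumor lines on this relative scale. Of 660 genes of the arm in the table, 327 were tested, and their median log2 fold change was 0.11 in 786-O against HK2, 0.16 in 786-M1A against HK2 and 0.05 in 786-M1A against 786-O, against -0.01, -0.02 and 0.00 over all genes. Against HK2, 48.6% of the 327 genes were higher and 28.1% lower in 786-O, and 52.3% were higher and 26.0% lower in 786-M1A. The long arm went the other way, with medians of -0.15, -0.17 and -0.04 over 376 genes. The share of all counts that fell on the arm was 1.76% ± 0.00724 in HK2 but 1.88% ± 0.00476 in 786-O and 1.94% ± 0.00295 in 786-M1A (SD, n = 3). *RASSF1* and *BAP1* were above the median of the arm in the 3 comparisons, and *VHL* was below it against HK2. *PBRM1* and *SETD2* were above it in 786-O against HK2 and below it in both comparisons of 786-M1A. These values are shares of each library's counts and say nothing of the number of copies of the arm in any of the lines, including HK2.

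**Figure D4:**
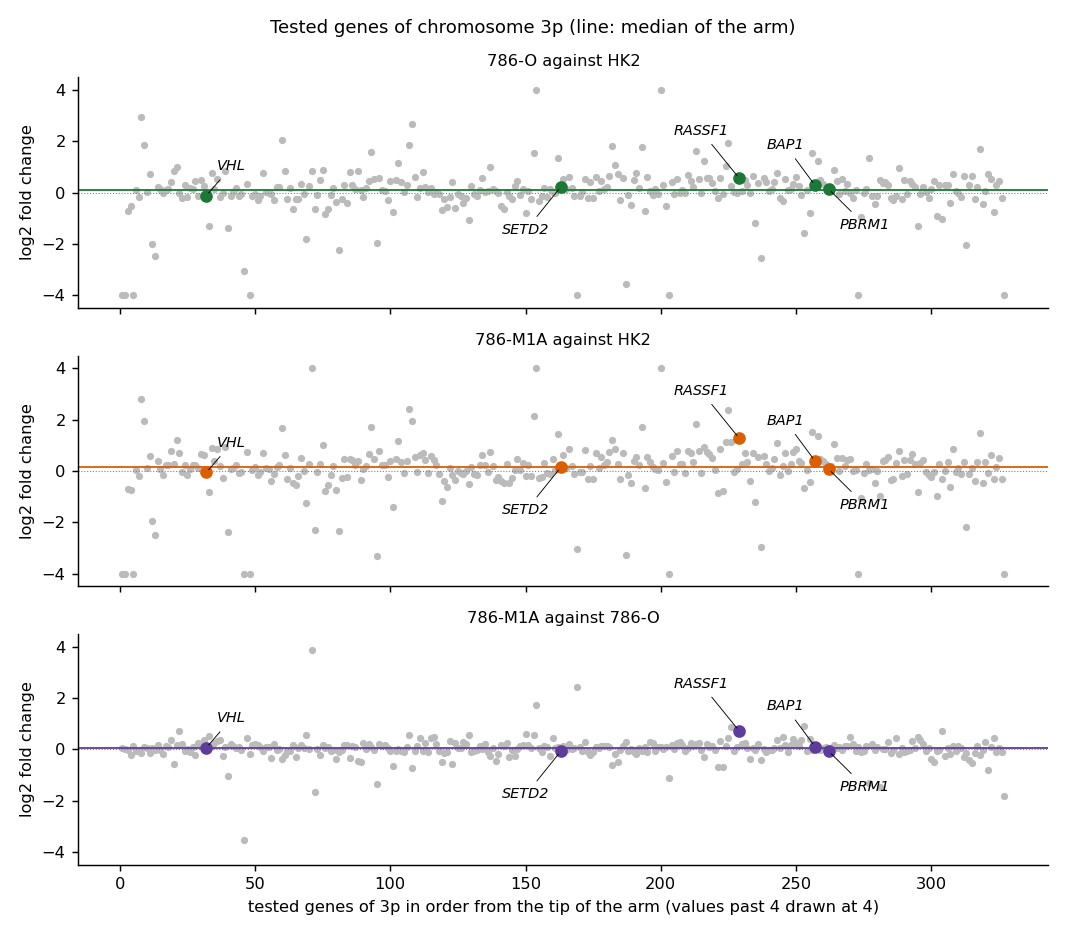
Log2 fold change (vertical axes, values past 4 drawn at 4) of the 327 tested genes of 3p in their order from the tip of the arm (gray), with the 5 genes tested in color and the median of the arm as a line, for the 3 comparisons. The medians lie at 0.11, 0.16 and 0.05.

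Other genes of 3p that have been proposed as tumor suppressors were mixed. Of 29 listed, 21 were tested, and 8 were higher and 6 lower in 786-O against HK2 (median log2 fold change 0.03), 7 higher and 6 lower in 786-M1A against HK2 (median -0.02), and 9 higher and 4 lower in 786-M1A against 786-O (median 0.08). At the ends were *IFRD2* (1.02) and the DNA repair gene *XPC* (-0.31) in 786-O against HK2, *IFRD2* (1.14) and the semaphorin *SEMA3F* (-0.88) in 786-M1A against HK2, and the G protein subunit *GNAI2* (0.31) and the guidance receptor *ROBO1* (-0.82) in 786-M1A against 786-O.

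**Figure D5:**
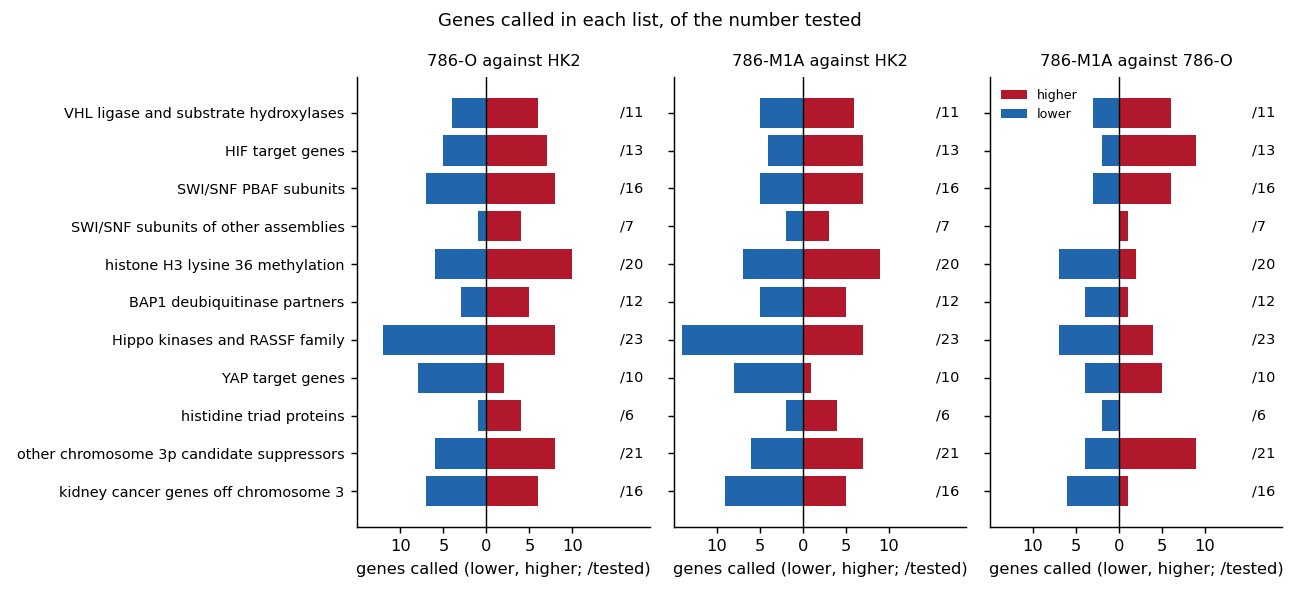
Number of genes called higher (red, to the right) and lower (blue, to the left) in each list, with the number tested at the right edge, for the 3 comparisons. The targets of YAP lean to the lower side against HK2, with 8 of 10 lower in both tumor lines.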

How the data were processed

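RNA of the 3 lines (3 libraries each) was prepared by the authors as TruSeq Stranded mRNA libraries, sequenced on a NextSeq and counted per gene with featureCounts of Rsubread on GRCh38. The deposited counts are whole numbers without normalization. The annotation version and strand setting are not given in the sources used here. Groups and replicate numbers came from the sample titles.

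Symbols came from RefSeq (GRCh38.p14) and matched 27745 of 28395 identifiers; lengths and overlaps came from GENCODE 44. Genes averaging 50 or more counts per library were tested with edgeR 4.0.16 (R 4.3.3; TMM, robust quasi-likelihood, a coefficient per line, one fit for the 9 libraries), with Benjamini-Hochberg adjustment over 12695 genes. Standard errors came from the fold change and the F statistic. The biological coefficient of variation was 3.93%. Counts of replicates of a line differed by more than sampling noise (chi-square per degree of freedom 3.06 to 8.49), so that none was taken as a duplicate. Permutation tests used log2 CPM with a prior count of 2. Exact Poisson intervals and floors cover counting error only. The edgeR intervals of log2 fold changes were built on the standard errors of the fit and so include the spread between dishes. The fit was tested on simulated data in which few genes were changed. That does not test the scaling where most genes are called, as here.

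Alternatives were RLE and upper-quartile scaling, DESeq2 1.42.0, limma-voom (limma 3.58.1), no filter, at least 10 counts in every library, the 2 lines alone, a replicate block and each library left out. The genes, lists and tests were chosen with earlier results of these data known. Named were the 6 genes, their nearest tested neighbors on 3p, the 2 genes with the closest profile, and in each list the known direct partners and the largest called change in each direction, except 1 gene that is not reported here.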

Additional observations from a re-analysis of the deposited data

How the results depend on the processing

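No called result changed sign under any alternative, but the log2 ratio of mean CPM of *FHIT* in 786-O against HK2, which was not called, went from -0.066 to 0.13 without HK2 replicate 2. The number of the 5 genes called was 3 to 5 in 786-O against HK2 when 1 library was left out, with 3 without 786-O replicate 2, and 1 to 2 in 786-M1A against 786-O, with 1 without 786-O replicate 2 or without 786-M1A replicate 1. In 786-M1A against HK2 it was 2 to 4. The calls of *RASSF1* and the calls of *BAP1* against HK2 held under all 17 alternatives.

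The median log2 fold change of 3p was 0.064 with upper-quartile scaling and 0.12 with no filter in 786-O against HK2, and 0.11 and 0.084 in 786-M1A against HK2, with 0.15 to 0.18 when 1 library was left out. In 786-M1A against 786-O it was 0.061 with RLE scaling and with DESeq2, 0.047 with upper-quartile scaling, 0.049 where every library needed 10 counts, 0.022 with no filter, and 0.046 to 0.063 when 1 library was left out. The cause was not tested.

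A replicate block in the fit left 5, 3 and 2 genes called, the same as without it. Deviations of same-numbered libraries correlated at -0.17 to 0.21. Their mean was -0.05 in 786-O against HK2, -0.07 in 786-M1A against HK2 and 0.13 in 786-M1A against 786-O. Of 9 libraries, 5 correlated best with their own number. These values do not settle whether the numbers pair the libraries, and the main fit did not pair them. Depth limited the account of *FHIT*, whose mean of 17.9 counts was below the filter.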

Other observations

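Kidney cancer genes that lie off the short arm of chromosome 3 moved in both directions against HK2. All 16 listed were tested, and 6 were higher and 7 lower in 786-O against HK2 (median log2 fold change -0.05, against -0.01 over all genes tested). For 786-M1A against HK2 5 were higher and 9 lower (median -0.18), and against 786-O 1 was higher and 6 lower (median -0.11). Against HK2 the highest was *SMARCA4* (0.71 and 0.72). Between the tumor lines the ends were *ELOC* (0.16) and the histone demethylase *KDM6A* (-0.35).

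Among 24 units, the chromosomes other than 3 with the 2 arms of 3 kept apart, 3p ranked 15th, 16th and 19th from the lowest median log2 fold change in 786-O against HK2, 786-M1A against HK2 and 786-M1A against 786-O. Chromosome 14, which carries *HIF1A*, *SAV1*, *EGLN3*, *NEDD8* and *YY1*, had the lowest median in the first 2. It was -0.74 and -0.69 over 405 genes, of which 88.9% and 84.2% were lower. Between the tumor lines its median was 0.06. Of these genes, *HIF1A*, *SAV1*, *NEDD8* and *YY1* were lower than HK2 in both tumor lines and *EGLN3* was higher.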
